A study of Mus musculus with 7 samples.

Results

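Malat1 and Neat1 are long noncoding RNAs that stay in the nucleus. These 2 genes, of 18194 on the array, were followed through every probe set, that is every group of array probes summarised to 1 value, whose single annotated gene was one of them. This gave 9 of 45037 probe sets, 7 for Malat1 and 2 for Neat1. The pair was chosen on the signal of a Malat1 probe set that was higher in every IKKβ-deleted heart of these same arrays, so every Malat1 difference below is a description and carries no test. The values came from whole hearts of 7 male mdx mice at 7 months of age, 1 heart per Affymetrix array. In 4 mice, denoted mdx HRTΔIKKβ, Cre recombinase driven by the alpha myosin heavy chain (Myh6) promoter had removed floxed IKKβ (the NF-κB activating kinase) in cardiomyocytes. The other 3, denoted mdx IKKβf/f, were littermates with floxed IKKβ and no Cre in their labels. Every mouse was mdx, that is, without dystrophin, a model of Duchenne muscular dystrophy, and the other cells of the Cre-positive hearts still carried IKKβ.

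Malat1 is among the most abundant transcripts of the mammalian nucleus and gathers in nuclear speckles, bodies rich in splicing factors. Its RNA does not end in an ordinary poly(A) tail. RNase P cuts off a small tRNA-like piece, mascRNA, and the new end of Malat1 folds into a triple helix that protects it. Neat1 is the scaffold of paraspeckles, nuclear bodies that form only where its long isoform is made, and a short polyadenylated isoform starts at the same promoter. The genes are close neighbours on mouse chromosome 19, and Malat1 has also been called Neat2.

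The start of the Malat1 gene is shown because IKKβ acts through NF-κB, and a match to the NF-κB site was looked for there. RefSeq (GRCm38.p6) places this window at chr19:5802623-5802922 on the minus strand, from 250 bases before to 50 bases after the start. Capitals mark the matches that were found.
Malat1 promoter: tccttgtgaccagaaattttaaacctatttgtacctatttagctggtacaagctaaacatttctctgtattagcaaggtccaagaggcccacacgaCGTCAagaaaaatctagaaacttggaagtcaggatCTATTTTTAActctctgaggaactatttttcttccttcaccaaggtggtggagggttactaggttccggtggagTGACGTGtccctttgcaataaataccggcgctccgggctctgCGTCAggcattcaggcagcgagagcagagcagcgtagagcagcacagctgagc

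Letters were searched on both strands. The NF-κB consensus had 0 matches in this window, against 8.46% of 32851 promoter windows of the same length that held at least 1. The MEF2 consensus, the site of a family of muscle transcription factors, had 1 match, and 3.19% of windows held one. The CREB/ATF core TGACG, which reads CGTCA from the other strand, was found at 3 places (20.8% of windows held it) and the hypoxia response core ACGTG at 1 place (19.6%), where it overlaps a TGACG. The heat shock element GAANNTTC (7.86% of windows) and the GC box GGGCGG (35.7%) had 0 matches. A match is a string of letters and not a site in use. No window of Neat1 was used here.

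The arrays were alike in level. Their medians lay between 6.73 and 6.75 on the log2 scale, and no pair of arrays correlated below 0.987 over all probe sets. Cardiomyocyte markers were bright in every heart, with Myh6, the alpha myosin heavy chain, between 14.82 and 14.89. The Y-linked gene Eif2s3y was between 9.90 and 10.15 in every heart, and the Xist probe set with the highest mean between 6.58 and 6.99. Ikbkb, which encodes IKKβ, was measured by 5 probe sets whose differences ran from -0.18 to 0.02, with a smallest adjusted p of 0.801 in limma. The sources used here do not give whether any of them lies in the deleted part, so they do not check the labels. Single hearts stood apart in markers of other tissues. Summed neutrophil markers were at 28202 in mdx HRTΔIKKβ replicate 2 and 23580 in mdx IKKβf/f replicate 1, and at 918.0 to 1242 in the other mdx HRTΔIKKβ hearts and 802.8 to 932.2 in the other mdx IKKβf/f hearts. Over all probe sets 0 (0%) passed limma at an adjusted p of 0.05, and the methods' t-test also gave 0, while 2735 (6.07%) had an unadjusted p under 0.05 in limma.

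The Malat1 probe sets did not all differ alike between the groups. Of the 7, only 1 separated the groups, 5 differed by less than 0.2 on the log2 scale, and the median of the 7 differences was 0.03. Over all 45037 probe sets the median difference was -0.01, and 89.3% differed by less than 0.2. Each difference is a log2 value, mdx HRTΔIKKβ minus mdx IKKβf/f, followed by its standard error in limma.

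**Figure D1:**
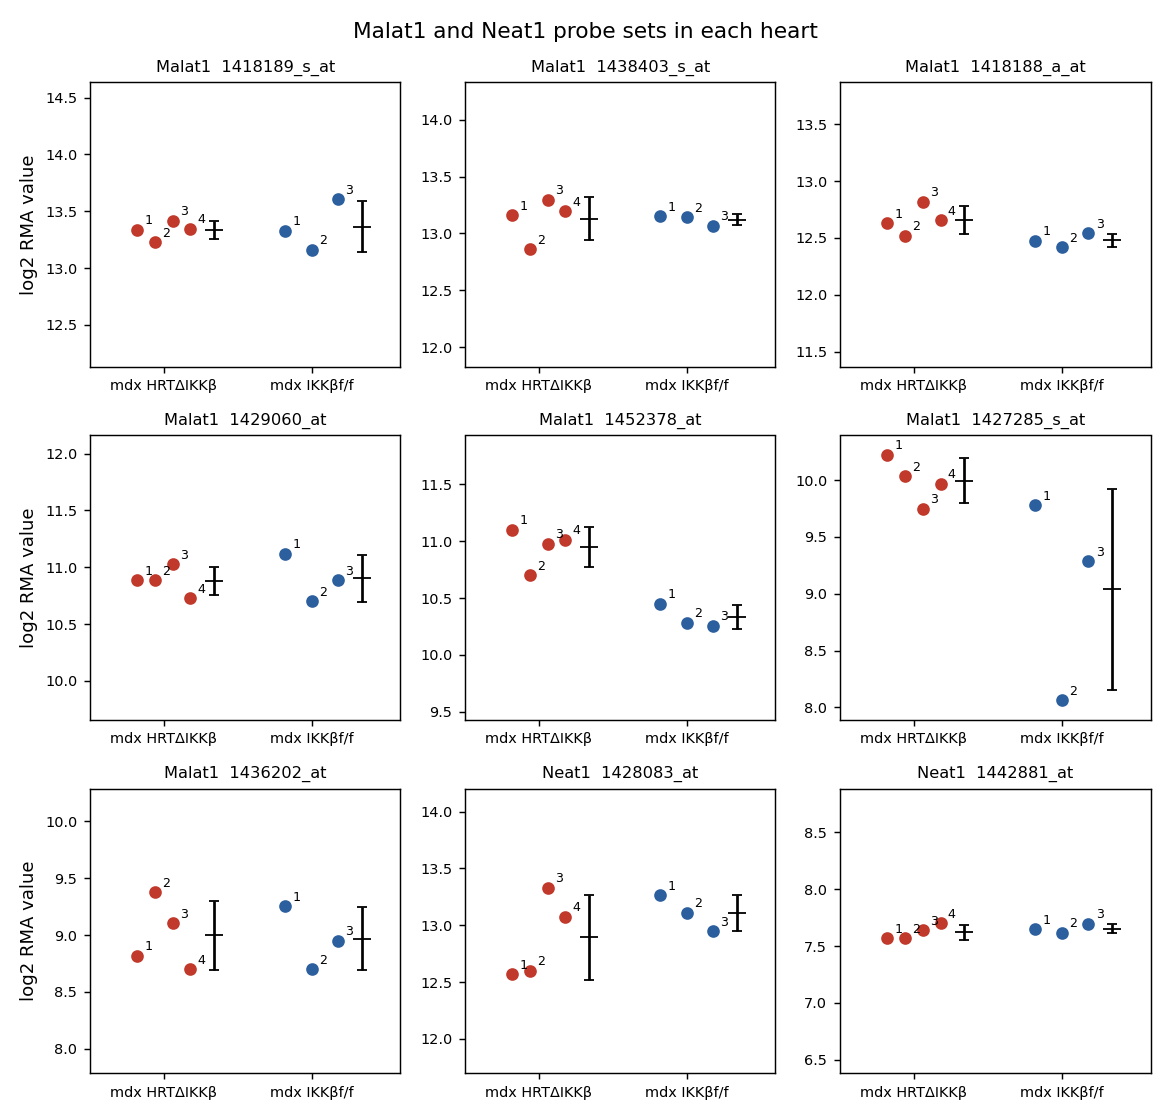
Log2 RMA values (y axis, each panel spanning the same range of log2 units) of the 7 Malat1 and 2 Neat1 probe sets in 4 mdx HRTΔIKKβ hearts (red) and 3 mdx IKKβf/f hearts (blue). Numbers are replicates and bars are mean ± SD, and the groups are apart only in the panel of Malat1 1452378_at.

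The probe set that led to the choice of Malat1 was 1452378_at. It stood at 11.10, 10.70, 10.98 and 11.01 in the 4 mdx HRTΔIKKβ hearts, against 10.45, 10.28 and 10.26 in the 3 mdx IKKβf/f hearts. All 4 hearts with the deletion were above all 3 without it, and mdx HRTΔIKKβ replicate 2 and mdx IKKβf/f replicate 1 were nearest to each other. The means were 10.95 ± 0.17 in mdx HRTΔIKKβ hearts and 10.33 ± 0.10 in mdx IKKβf/f hearts (SD, n = 4 and 3), a difference of 0.62 ± 0.10 or 1.54-fold. Of all probe sets on the array, 3.01% were likewise higher in every mdx HRTΔIKKβ heart than in any mdx IKKβf/f heart, and 2.44% were lower in every one. The difference was 0.70 without mdx HRTΔIKKβ replicate 2 and 0.68 without mdx IKKβf/f replicate 1, the hearts with high neutrophil markers. Since this separation chose the gene, nothing is read from it.

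A second probe set, 1427285_s_at, was designed from the same sequence record. It had the widest gap of the 7, but its groups overlapped. Values were 10.22, 10.03, 9.75 and 9.97 in mdx HRTΔIKKβ hearts, against 9.78, 8.06 and 9.28 in mdx IKKβf/f hearts. The value of mdx IKKβf/f replicate 2 stood far below the other 6 hearts, and mdx IKKβf/f replicate 1 lay just above mdx HRTΔIKKβ replicate 3. The difference of 0.95 ± 0.36 was 0.46 without mdx IKKβf/f replicate 2. Its spread within groups, a residual SD of 0.58, exceeded that of 98.9% of all probe sets. The ending _s_at marks probes that match more than a single transcript, and 1418189_s_at and 1438403_s_at carry it too.

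The 3 Malat1 probe sets with the highest signal did not show a gap of that size. On 1418189_s_at the values were 13.34, 13.23, 13.42 and 13.35 in mdx HRTΔIKKβ hearts, against 13.33, 13.16 and 13.60 in mdx IKKβf/f hearts. Both the lowest and the highest of the 7 hearts were controls, and the difference was -0.03 ± 0.10. It changed sign with single hearts. It was -0.13 when mdx IKKβf/f replicate 2 was left out and 0.09 when replicate 3 was. On 1438403_s_at the values were 13.16, 12.86, 13.30 and 13.20 in mdx HRTΔIKKβ hearts, against 13.15, 13.14 and 13.07 in mdx IKKβf/f hearts. Here mdx HRTΔIKKβ hearts held both ends of the range, with replicate 2 lowest and replicate 3 highest, and the difference was 0.01 ± 0.10.

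Between these and 1452378_at lay 1418188_a_at. It had 12.63, 12.52, 12.82 and 12.66 in mdx HRTΔIKKβ hearts, against 12.48, 12.42 and 12.54 in mdx IKKβf/f hearts. Only mdx HRTΔIKKβ replicate 2 and mdx IKKβf/f replicate 3 crossed, by 0.02, so that this probe set stood just outside the group of those that separate. Its difference was 0.18 ± 0.08, which ran from 0.12 to 0.22 when each heart in turn was left out. It was designed from the same sequence record as 1418189_s_at, whose difference was -0.03.

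The remaining Malat1 probe sets were 1429060_at and 1436202_at. On 1429060_at the 4 mdx HRTΔIKKβ hearts lay between 10.73 and 11.03 and the 3 mdx IKKβf/f hearts between 10.70 and 11.12, with a difference of -0.02 ± 0.11. In 3 of the 7 hearts this probe set had exactly the same value, 10.89. On 1436202_at the 4 mdx HRTΔIKKβ hearts lay between 8.70 and 9.38 and the 3 mdx IKKβf/f hearts between 8.70 and 9.25, with a difference of 0.03 ± 0.19. On both, the range of mdx IKKβf/f hearts covered most of that of mdx HRTΔIKKβ hearts.

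**Figure D2:**
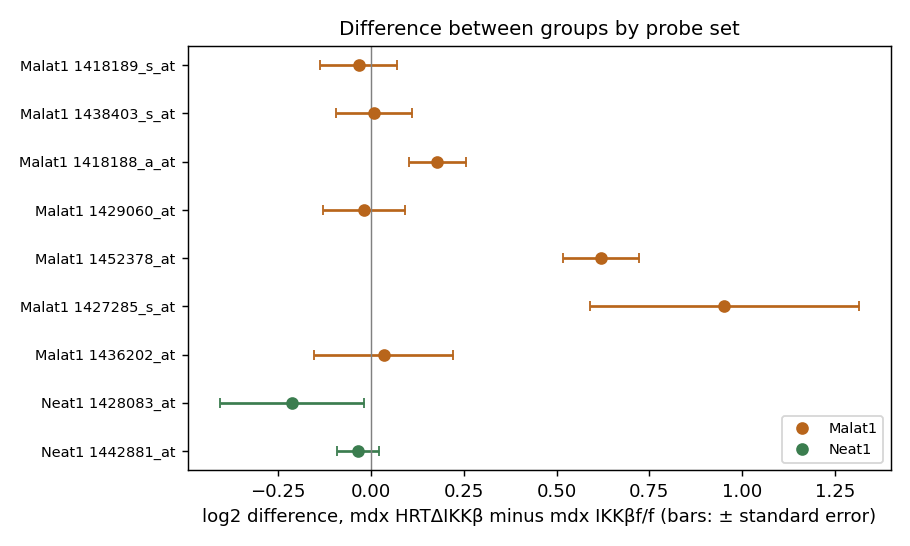
The x axis gives the log2 value of mdx HRTΔIKKβ minus that of mdx IKKβf/f for each Malat1 (orange) and Neat1 (green) probe set (y axis), with bars of ± 1 standard error from limma. Malat1 1427285_s_at (0.95) and 1452378_at (0.62) stand away from the other 5 Malat1 probe sets, which lie between -0.03 and 0.18.

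The Malat1 probe sets followed each other only loosely from heart to heart. Over the 21 pairs the Pearson correlation across the 7 hearts ran from -0.482 to 0.772, with a median of 0.240, and 5 pairs were below 0. The highest value was between 1418188_a_at and 1452378_at (0.772), and the next between 1429060_at and 1436202_at (0.739). Of pairs from 1 sequence record, 1452378_at and 1427285_s_at reached 0.725, and 0.306 once each group was centred on its own mean. The other, 1418189_s_at and 1418188_a_at, was at 0.395, and 0.694 when centred. Centring thus lowered some pairs and raised others. The highest pair fell to 0.430, while 1438403_s_at with 1452378_at rose from 0.331 to 0.791. The median of the centred values was 0.306. These values describe 7 arrays that all probe sets share. The sources used here do not give where the probes of each set lie along the Malat1 transcript.

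Neat1 did not pass the test on either probe set. On 1428083_at the values were 12.57, 12.60, 13.33 and 13.08 in mdx HRTΔIKKβ hearts, against 13.27, 13.11 and 12.95 in mdx IKKβf/f hearts. The mdx HRTΔIKKβ hearts fell into a low pair, replicates 1 and 2, and replicates 3 and 4, which lay within or above the range of the controls. Means were 12.89 ± 0.37 in mdx HRTΔIKKβ hearts and 13.11 ± 0.16 in mdx IKKβf/f hearts (SD, n = 4 and 3). The difference was -0.21 ± 0.19, with a 95% interval from -0.66 to 0.24 (limma, unadjusted p = 0.308, adjusted p = 0.838). It was -0.36 with mdx HRTΔIKKβ replicate 3 left out, -0.10 with replicate 1 left out, -0.11 with replicate 2 left out and -0.13 with mdx IKKβf/f replicate 1 left out, and was below 0 in all 7 fits that left out a heart. The interval includes both no difference and a decrease by more than 0.6 on the log2 scale.

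The other Neat1 probe set, 1442881_at, varied little. Values were 7.57, 7.57, 7.64 and 7.70 in mdx HRTΔIKKβ hearts, against 7.65, 7.62 and 7.70 in mdx IKKβf/f hearts. The same replicates 1 and 2 of mdx HRTΔIKKβ were lowest. The difference was -0.03 ± 0.06, with a 95% interval from -0.17 to 0.10 (limma, unadjusted p = 0.551, adjusted p = 0.907). Across the 7 hearts the 2 Neat1 probe sets correlated at 0.618. The sources used here do not give which Neat1 isoform each measures.

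Whether Malat1 and Neat1 varied together was asked next, over the 7 hearts and with the brightest probe set of each. Pearson's r was 0.145 (exact permutation test, two-sided, p = 0.766) and Spearman's rho 0.0714 (exact permutation, p = 0.906). With each group centred on its mean, r was 0.106 (exact permutation p = 0.831) and rho 0.286 (exact permutation p = 0.556). Adjusted over these 2 relations, the p-values were 0.831 for r and 0.906 for rho in both. Without mdx IKKβf/f replicates 2 and 3, the hearts farthest from the median of Malat1, r was 0.694 over the remaining 5 hearts. The sign turned without mdx HRTΔIKKβ replicate 2 (-0.0845) and with the mean of all probe sets of each gene (-0.135). Over all 14 pairs of a Malat1 and a Neat1 probe set, r ran from -0.354 to 0.671 with a median of 0.0444, and 7 pairs were below 0. The highest was Malat1 1438403_s_at with Neat1 1428083_at, at 0.671 and 0.738 with each group centred. Malat1 1418189_s_at with Neat1 1442881_at was at 0.608, and 1418188_a_at with Neat1 1428083_at was at 0.186, and 0.696 with each group centred. These 14 values are descriptions with no test, and the sign and size of the relation thus differed with the probe sets taken.

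**Figure D3:**
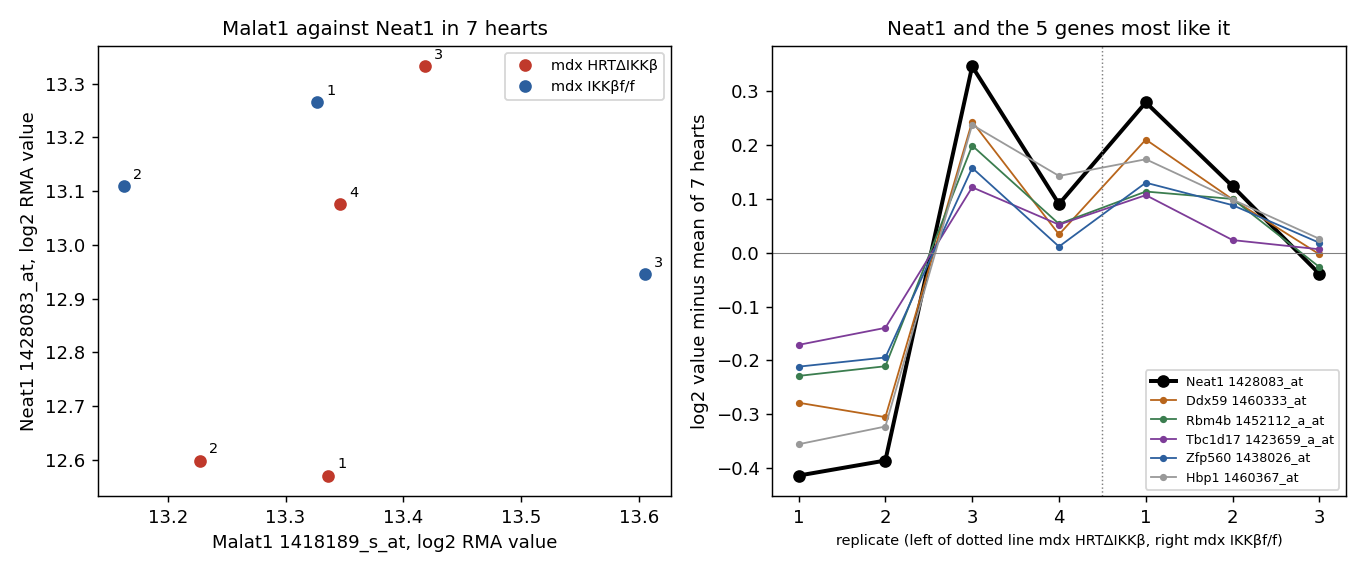
Left, log2 RMA value of Neat1 1428083_at (y axis) against Malat1 1418189_s_at (x axis) in each heart, red for mdx HRTΔIKKβ and blue for mdx IKKβf/f, with replicate numbers. Right, log2 values minus their mean over 7 hearts (y axis) by replicate (x axis) for Neat1 and the 5 genes most like it, which all lie lowest in mdx HRTΔIKKβ replicates 1 and 2.

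The genes whose pattern over the 7 hearts was most like that of Neat1 were Ddx59, an RNA helicase gene (r = 0.995), Rbm4b, Tbc1d17, Zfp560 and Hbp1, a transcriptional repressor gene (r = 0.981). With each group centred on its mean they still correlated with Neat1 at 0.978 to 0.996. Rbm4b encodes an RNA-binding protein that is also on the list of paraspeckle proteins, and its rank order over the hearts was the same as that of Neat1 (rho = 1). It stood at 6.74, 6.76, 7.17 and 7.02 in mdx HRTΔIKKβ hearts, against 7.08, 7.07 and 6.94 in mdx IKKβf/f hearts. As for Neat1, replicates 1 and 2 of mdx HRTΔIKKβ were lowest and replicate 3 highest. The difference of Rbm4b was -0.11 ± 0.11 (limma, adjusted p = 0.854), and 2 other Rbm4b probe sets differed by -0.02 and -0.01. For the brightest Malat1 probe set the most similar genes were Arsg, Serpinb9g, Pla2g2d, Rnpepl1 and Ces5a, with r between 0.962 and 0.976. That Malat1 probe set spanned only 0.44 on the log2 scale. Serpinb9g lay between 3.62 and 3.93, near the lowest value on the arrays (3.12). Among 18192 other genes, 217 correlated with Neat1 above 0.9 and 31 with Malat1. These correlations are descriptions over 7 hearts, picked as the highest of all genes.

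Neat1 recruits a set of proteins to paraspeckles, and these were described next. For lists, each gene stood by its probe set with the highest mean. Of all 18194 genes taken this way, 8683 had a higher and 9511 a lower mean in mdx HRTΔIKKβ hearts. Of 39 measured genes for paraspeckle proteins, the mean was higher in mdx HRTΔIKKβ hearts for 23 and lower for 16, with a median difference of 0.03 against -0.01 over all genes. None passed over all probe sets in limma (smallest adjusted p = 0.796), while at an unadjusted 0.05 there were 3 higher and 2 lower ones. That is 12.8% of the list, beside 6.2% of all 18194 genes (3.25% higher and 2.95% lower). The count of 5 fell to 0 when either mdx HRTΔIKKβ replicate 2 or the mdx IKKβf/f replicate 1 heart was left out. It was 1 without mdx IKKβf/f replicate 2, 2 without mdx HRTΔIKKβ replicate 1 and 3 without mdx HRTΔIKKβ replicate 4. The share of all genes was not computed with hearts left out, here or for the lists below. Nothing is therefore read from such changes in a count.

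Sfpq, which encodes a paraspeckle protein that Neat1 needs for stability, was at 10.23, 10.32, 10.17 and 10.33 in mdx HRTΔIKKβ hearts, against 9.90, 9.92 and 10.22 in mdx IKKβf/f hearts. The third control lay among the mdx HRTΔIKKβ hearts, and the difference was 0.25 ± 0.09 (limma, unadjusted p = 0.0250). Of the other 5 Sfpq probe sets, 3 differed by 0.20 to 0.27 and 1 by -0.20 ± 0.17. The last, 1436898_at, differed by 1.28 ± 0.93 through a low value in mdx IKKβf/f replicate 1, and by -0.063 without that heart. The RNA-binding protein gene Rbm14 (0.20 ± 0.08) and Tardbp, which encodes TDP-43 (0.13 ± 0.05), were the other higher members. All 5 Rbm14 probe sets differed upwards, by 0.06 to 0.24, and of the other 4 Tardbp probe sets 1 differed by -0.04. Cirbp, which encodes a cold-inducible RNA-binding protein, was at 9.06, 9.26, 9.85 and 9.37 in mdx HRTΔIKKβ hearts, against 10.18, 10.09 and 9.59 in mdx IKKβf/f hearts. Its groups overlapped at mdx HRTΔIKKβ replicate 3, and the difference was -0.57 ± 0.21 (limma, unadjusted p = 0.0261). Zc3h6 was also lower, by -0.41 ± 0.17. Nono and Pspc1, whose proteins form dimers with SFPQ, differed by 0.09 ± 0.06 and 0.06 ± 0.09 and did not pass.

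Malat1 lies in speckles beside the SR proteins, a family of splicing factors. Of 47 measured genes for speckle and SR proteins, the mean was higher in mdx HRTΔIKKβ hearts for 34 and lower for 13. The median difference was 0.06, and of all genes 8683 were higher and 9511 lower. The test called 1 higher and 0 lower at an unadjusted 0.05, which is 2.13% of the list against 6.2% of all genes, and none passed the adjusted threshold. That member was Sf3b1, a subunit of the U2 snRNP, with 11.77, 11.85, 11.73 and 11.74 in mdx HRTΔIKKβ hearts against 11.63, 11.68 and 11.63 in mdx IKKβf/f hearts. Its groups did not overlap, and the difference was 0.13 ± 0.05 (limma, unadjusted p = 0.0427, adjusted p = 0.796). Next in order were Sf3a1 (0.12 ± 0.05), the U2AF subunit gene U2af2 (0.12 ± 0.06) and Scaf4 (0.16 ± 0.08). Other probe sets differed by 0.07 to 0.17 for Sf3b1, by 0.007 to 0.43 for Sf3a1 and by 0.07 and -0.04 for Scaf4. Srsf1, whose protein is known to bind Malat1, differed by 0.06 ± 0.09, and Son and Srrm2, which encode the core proteins of speckles, by -0.05 ± 0.07 and -0.09 ± 0.10. The count was 0 with mdx HRTΔIKKβ replicate 2 or with the mdx IKKβf/f replicate 1 heart left out, 2 without mdx HRTΔIKKβ replicate 1 or 4, and 3 without mdx HRTΔIKKβ replicate 3.

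**Figure D4:**
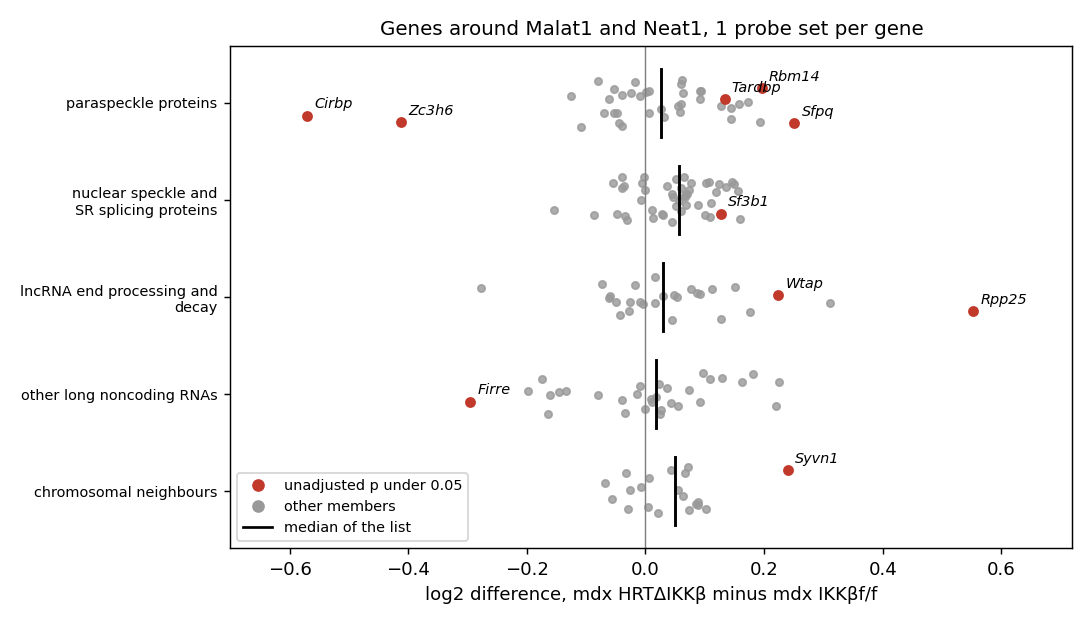
The x axis gives the log2 value of mdx HRTΔIKKβ minus that of mdx IKKβf/f for each measured gene in 5 lists (y axis). Red points and names mark an unadjusted limma p under 0.05, grey points the other members and black lines the medians, which lie between 0.02 and 0.06.

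A list of 27 measured genes covered enzymes that cut and trim these RNAs, nuclear decay, polyadenylation and the RNA methylation m6A. The median difference was 0.03. At an unadjusted 0.05 the test called 2 higher and 0 lower (7.41%, beside 6.2% of all genes). Rpp25, a protein subunit gene of RNase P and RNase MRP, was at 6.32, 6.16, 5.71 and 6.11 in mdx HRTΔIKKβ hearts, against 5.44, 5.51 and 5.61 in mdx IKKβf/f hearts. All 4 hearts with the deletion were above the 3 controls, with replicate 3 nearest to them, and the difference was 0.55 ± 0.14 (limma, unadjusted p = 0.00418, adjusted p = 0.790). Wtap, a subunit gene of the m6A RNA methyltransferase complex, was the other, at 0.22 ± 0.08, but a second Wtap probe set showed -0.05 ± 0.05. Dis3 (0.15 ± 0.08) and Zcchc8 (0.13 ± 0.07), genes of nuclear RNA decay, came next. Elac2, encoding the RNase Z that trims mascRNA, differed by -0.04 ± 0.05, and Mettl16, whose protein binds the Malat1 triple helix, by 0.09 ± 0.06.

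Among 31 other measured long noncoding RNAs, 18 had a higher and 13 a lower mean, beside 8683 and 9511 of all genes. The median difference was 0.02. The test called 0 higher and 1 lower (3.23%, beside 6.2% of all genes) at an unadjusted 0.05. This was Firre, a nuclear RNA of the X chromosome, with 7.45, 7.76, 7.98 and 7.80 in mdx HRTΔIKKβ hearts against 8.17, 7.90 and 8.06 in mdx IKKβf/f hearts. The groups overlapped at mdx HRTΔIKKβ replicate 3, and the difference was -0.30 ± 0.13 (limma, unadjusted p = 0.0482, adjusted p = 0.796). The other 3 Firre probe sets differed by -0.09, 0.05 and -0.06. Carlr (-0.16 ± 0.07), Mirg (-0.16 ± 0.08) and Xist (-0.15 ± 0.08) followed. Carlr lay between 3.91 and 4.22, near the lowest value on the arrays (3.12). A second Mirg probe set differed by 0.02, and the other Xist probe sets by -0.05 and 0.07. Norad (-0.01 ± 0.06), Meg3 (0.09 ± 0.12), Kcnq1ot1 (-0.08 ± 0.09) and Miat (-0.001 ± 0.06) did not pass. The count was 0 with mdx HRTΔIKKβ replicate 2 or with the mdx IKKβf/f replicate 3 heart left out. It was 2 when any of mdx HRTΔIKKβ replicate 4 and the mdx IKKβf/f hearts 1 and 2 was left out.

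The genes around Malat1 and Neat1 were taken as the 10 nearest measured genes on each side in the RefSeq order. Of these 20, 14 had a higher and 6 a lower mean (8683 and 9511 of all genes), with a median difference of 0.05. The test called 1 higher and 0 lower (5%, beside 6.2% of all genes) at an unadjusted 0.05. Syvn1, a ubiquitin ligase gene of the endoplasmic reticulum, was at 9.05, 9.28, 9.25 and 9.07 in mdx HRTΔIKKβ hearts, against 9.0, 8.77 and 8.99 in mdx IKKβf/f hearts. The groups did not overlap, the difference was 0.24 ± 0.09 (limma, unadjusted p = 0.0277, adjusted p = 0.796), and a second probe set differed by 0.10 ± 0.06. The count was 0 without mdx HRTΔIKKβ replicate 2, without its replicate 3 and without mdx IKKβf/f replicate 2. Fau (0.08 ± 0.06), Map3k11 (0.10 ± 0.07) and Kcnk7 (0.09 ± 0.07) were next. The list includes Rela, which encodes the p65 subunit of NF-κB and differed by 0.07 ± 0.09. The nearest measured genes, Ltbp3 beside Malat1 and Frmd8 beside Neat1, differed by -0.03 and 0.09.

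Whole hearts hold several cell types, and fewer cells of a type cannot be told apart from less RNA per cell. Marker lists were therefore set beside the Malat1 values. Of 17 macrophage and monocyte markers, 15 were higher in the mean of mdx HRTΔIKKβ hearts, and their summed linear level was 15907 to 20577 in mdx HRTΔIKKβ hearts and 13996 to 17494 in mdx IKKβf/f hearts. The lowest sum was that of mdx IKKβf/f replicate 2, the heart with the lowest value on Malat1 1427285_s_at. This heart also had the lowest sums of cardiomyocyte (253590), endothelial (13211), fibroblast (41398), neutrophil (802.8) and atrial (13667) markers. The cardiomyocyte and atrial lists both hold Nppa, at 12.88 in this heart and 13.96 to 14.73 in the others. Of other cardiomyocyte markers, Myl2 was highest in this heart (15.09), and Myh6 was at the low end of its range (14.82). All 8 B and plasma cell markers had a higher mean, with sums of 2591 to 17646 in mdx HRTΔIKKβ hearts and 823.4 to 2208 in mdx IKKβf/f hearts. All 15 skeletal muscle markers had a lower mean, with sums of 28487 to 45543 in mdx HRTΔIKKβ hearts and 36364 to 106940 in mdx IKKβf/f hearts, the highest in mdx IKKβf/f replicate 1. Sums of 9 atrial markers ran from 35170 to 73466 in mdx HRTΔIKKβ hearts and from 13667 to 56372 in mdx IKKβf/f hearts. Endothelial markers had a higher mean for 8 of 12 and fibroblast markers for 9 of 12. Of all 18194 genes, 8683 had a higher and 9511 a lower mean. At an unadjusted limma p of 0.05, the test called 35.3% of macrophage and monocyte, 37.5% of B and plasma cell, 25% of endothelial and 11.1% of atrial markers. It called 0% of fibroblast, cardiomyocyte, neutrophil and skeletal muscle markers, beside 6.2% of all genes. None of these markers passed the adjusted threshold. The part of these cell types in the Malat1 and Neat1 values was not tested.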

How the data were processed

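Biotin-labelled cRNA from the RNA of each whole heart was put on 1 Affymetrix mouse genome array. The deposited table holds log2 values that the authors made by RMA, which corrects background, quantile-normalizes arrays and summarises probes. Partek and, independently, Affymetrix Expression Console were used, and the sources used here give neither their versions nor which of them made the table. RMA shrinks folds at low signal, and its quantile step takes out a shift common to all genes. The range of 3.12 to 15.09 fits a log2 scale.

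Groups were compared over all 45037 probe sets with limma 3.58.1 in R 4.3.3 (lmFit and eBayes, two-sided, Benjamini-Hochberg adjustment), with no filter. For single probe sets the methods name no test. Their general unpaired Student test was run as an alternative ("the methods' t-test"). The study calls its samples biological replicates. No label pairs hearts by number. Precision is limited by the number of arrays.

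Genes were named through the platform annotation. Of the probe sets, 34945 had 1 gene, 932 several and 9160 none, and only the first kind was named. RefSeq (GRCm38.p6) gave gene order and the promoter window, which was matched for Malat1 alone. Lists were written from textbook knowledge, and 251 of their 272 entries were on the array (Rbm7 and Nppa stand on 2 lists each). In lists each gene stood by its probe set with the highest mean over the 7 hearts. Linear levels are 2 to the power of the log2 value.

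The members and lists were chosen with earlier results of these data known. Named genes were all probe sets of both members, for each list the 4 genes of smallest unadjusted p, the 5 genes most correlated with the brightest probe set of each member, and markers. Zc3h6, Rela, Ltbp3, Frmd8, Nono, Pspc1, Srsf1, Son, Srrm2, Elac2, Mettl16, Norad, Meg3, Kcnq1ot1, Miat and Tardbp's and Sfpq's other probe sets are outside this rule, having been named once their values had been seen, and the promoter motifs were also chosen late. Taf15 and Aqr, named for their correlation with Neat1, are also outside this rule. The fit was tested on simulated data. Alternatives were 2 other scalings, a filter on dim probe sets, a block for the replicate number, array weights, a trended and robust variance, other choices of the probe set for a gene, and leaving out each heart.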

Additional observations from a re-analysis of the deposited data

Results flagged for a closer look

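In 45 probe sets of the genes named in the text, the 4 mdx HRTΔIKKβ hearts were searched for a heart far from the others by Dixon's criterion, which chance meets in about 1 of 20 groups. It was met by 1 probe set, Xist 1436936_s_at, at 6.58 in mdx HRTΔIKKβ replicate 2 against 6.81 to 6.86 in the other 3 mdx HRTΔIKKβ hearts. Groups of 3 hearts were not searched.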

How the results depend on the processing

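Across the scalings, the filter on dim probe sets, array weights, and a trended and robust variance, neither Neat1 probe set passed an unadjusted p of 0.05, and both stayed below 0. The same held for 1428083_at with the Student test, which was not run for 1442881_at. With array weights 1428083_at was at -0.11. Over left-out hearts the difference of Malat1 1418189_s_at ran from -0.13 to 0.09, that of Neat1 1428083_at from -0.36 to -0.10 and the correlation between them from -0.0845 to 0.324, and the correlation was -0.135 with the mean of all probe sets. The differences of Malat1 1438403_s_at, 1429060_at and 1436202_at, like that of 1418189_s_at, took both signs. That of Malat1 1452378_at ran from 0.57 to 0.70. It could not change sign, because this probe set was chosen for groups that did not overlap, so nothing is read from its range. For Sfpq 1436898_at, leaving out mdx IKKβf/f replicate 1, a choice made after its values were seen, gave -0.063.

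Counts at an unadjusted p of 0.05 were small and moved with many settings. The share of all genes at this p was not computed for the other settings, so nothing is read from these changes. Paraspeckle proteins (5) gave 3 with the Student test, 3 with the median of a gene's probe sets and 0 to 5 over left-out hearts. Speckle and SR proteins (1) gave 0 with median-centred arrays, 0 with a second quantile normalization, 3 with the Student test, 0 with the median of probe sets and 0 to 3 over left-out hearts. End processing and decay (2) gave 1 with the median of probe sets and 2 to 3 over left-out hearts. Other long noncoding RNAs (1) gave 2 with trended and robust variance, 2 with array weights, 0 with the Student test and 0 to 2 over left-out hearts. Neighbours (1) gave 0 with the Student test, 0 without _s_at and _x_at probe sets and 0 to 1 over left-out hearts. The medians of the 5 lists over left-out hearts ran from 0.0006 to 0.04, from 0.03 to 0.07, from -0.0005 to 0.05, from -0.005 to 0.05 and from 0.009 to 0.08, in that order. The cause was not tested.

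Same-numbered hearts did not deviate together (correlations of -0.0751, -0.377 and -0.0362), so no pairing by number was seen. No label gives litter or batch, so these few values cannot exclude that hearts shared one. With the replicate number as a block, Neat1 1428083_at differed by -0.27 (limma, unadjusted p = 0.293), paraspeckle proteins gave 1, neighbours gave 0, and 0 probe sets passed the adjusted threshold. No mdx HRTΔIKKβ heart that had a control of its number correlated best with that control.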

Other observations

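Genes that follow the separating Malat1 probe set, 1452378_at, were listed after its values had been seen. The 5 highest over the 7 hearts were Aldh4a1, Batf, Grhl1, Preb and Slc35b4 (r from 0.949 to 0.971), with differences between 0.12 and 0.20. Ranking by a probe set chosen because it separates the groups favours genes that also separate them. Nothing is therefore read from these differences. With each group centred on its own mean, r was 0.90 for Aldh4a1, 0.800 for Batf, 0.896 for Grhl1, 0.684 for Preb and 0.676 for Slc35b4. Among 18192 other genes, 17 exceeded 0.9 over the 7 hearts.

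A Sfpq probe set other than the one that stood for the gene, 1436898_at, was at 8.61, 8.57, 9.18 and 8.99 in mdx HRTΔIKKβ hearts, against 4.88, 9.25 and 8.55 in mdx IKKβf/f hearts. The low value belongs to mdx IKKβf/f replicate 1, in which the other 5 Sfpq probe sets ranged from 7.81 to 9.90. The difference of this probe set, 1.28 ± 0.93, did not pass (limma, adjusted p = 0.816), and without that heart its means were 8.84 in mdx HRTΔIKKβ hearts and 8.90 in the other 2 mdx IKKβf/f hearts.

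Of 39 paraspeckle protein genes, 5 correlated with Neat1 1428083_at above 0.7 over the 7 hearts (12.8%), beside 8.19% of all genes, and the median correlation of the list was -0.14 beside -0.04 for all genes. The highest after Rbm4b were Taf15 (r = 0.912) and Aqr (r = 0.90). At the other end the lowest member was at -0.965, beside -0.990 over all genes. These are descriptions over hearts that all genes share.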
